A study of Mus musculus with 30 samples.

Results

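The 6 genes Cyp17a1, Insl3, Lhcgr, Ptch1, Gli1 and Hhip were followed by symbol across 30 ovary libraries, as 6 of the 18022 genes in the table. Each of the 6 matched 1 row, and all 6 were among the 14740 genes kept for testing (mean log2 CPM above 0, where CPM is counts per M reads, M standing for mega). The mice were adult CD1 females, an outbred stock, and RNA came from whole ovaries. Dosing lasted 10 days. The agents were vehicle, DEHP (di(2-ethylhexyl) phthalate), with groups at 20 and at 200 ug/kg/day, and DiNP (diisononyl phthalate), with groups at 20 and at 100 ug/kg/day. Ovaries were taken at once (0 months) or 3 months later, which gives 10 groups of 3 libraries with a vehicle group at each time. Both compounds are plasticizers with branched alkyl ester chains, and the chains of DiNP, a mixture of isomers, are longer. The labels do not say whether replicates are separate mice, so p-values measure the spread between these libraries only. The 3-month mice were also older at collection, so time after dosing and age cannot be told apart.

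Theca cells surround the growing follicle and make androgen under the control of luteinizing hormone (LH). LHCGR is the LH receptor, CYP17A1 converts progestins into androgens, and INSL3 is a peptide hormone that theca cells secrete. The theca also receives a hedgehog signal from the granulosa cells inside the follicle. The ligands IHH and DHH bind the receptor PTCH1, which releases SMO and activates the GLI factors. GLI1, PTCH1 and HHIP are transcribed in response. PTCH1 and HHIP, a membrane protein that binds hedgehog ligands, then restrain the signal. In whole ovary a lower value can come from fewer cells of a type or from less RNA per cell, and these cannot be told apart. Lhcgr is also expressed by preovulatory granulosa cells and by the corpus luteum.

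Insl3 is shown by sequence because most of its transcript is shared with a neighbour. It lies at chr8:71689252-71690577 on the plus strand (GRCm38.p6, Entrez 16336), inside the end of Jak3, a cytokine receptor kinase at chr8:71676383-71690577 on the same strand. The second and last exon of Insl3 (chr8:71690172-71690575) is 404 bases long, or 64.8% of the 623-base transcript. The same bases form the last exon of a Jak3 transcript, exon 25, or 10.1% of its 4019 bases. A read from inside that exon does not distinguish the genes by its position or strand. The Insl3 values are uncertain to that extent. Below are the 15 bases on each side of the splice junction, from GRCm38.p6, with the shared exon in capitals:
Insl3: tggagacccgggaccGGGAGCTGCTGCAGT
Jak3: cagccaggggcgagaGGGAGCTGCTGCAGT

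Promoter sequence, 250 bases before the start, was found in the RefSeq table (GRCm38.p6) for 4 of the 6 genes: Insl3, Lhcgr, Ptch1 and Hhip. The Ptch1 window (chr13:63565736-63565985) precedes a start that lies inside the gene, which spans chr13:63508328-63573460. The windows of Lhcgr (chr17:88792015-88792264) and Hhip (chr8:80058009-80058258) lie partly inside their genes. These genes begin, on the minus strand, at chr17:88792059 and chr8:80058060. Both strands were searched for CAAGGTC (the core of the site bound by NR5A1, the steroidogenic factor SF-1), AGGTCA (a nuclear receptor half-site), GACCACCCA (a GLI site) and GGGCGG (a GC box). CAAGGTC and AGGTCA can overlap by the letters AGGTC. The promoters of Insl3 and Lhcgr are shown because each held 1 of the nuclear receptor motifs, given in capitals:
Insl3 promoter, chr8:71689002-71689251, plus strand: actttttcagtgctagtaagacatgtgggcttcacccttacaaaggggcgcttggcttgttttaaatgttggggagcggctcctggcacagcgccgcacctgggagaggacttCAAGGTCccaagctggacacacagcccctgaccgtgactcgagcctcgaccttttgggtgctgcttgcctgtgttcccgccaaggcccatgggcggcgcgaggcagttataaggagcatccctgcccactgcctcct
Lhcgr promoter, chr17:88792015-88792264, minus strand: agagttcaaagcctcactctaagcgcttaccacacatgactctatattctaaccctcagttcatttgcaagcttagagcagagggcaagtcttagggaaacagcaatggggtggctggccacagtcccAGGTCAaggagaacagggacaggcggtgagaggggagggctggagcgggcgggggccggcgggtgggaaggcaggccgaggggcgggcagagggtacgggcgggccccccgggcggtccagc

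In Insl3 the match was CAAGGTC, whose first letter lies 137 bases before the start. Of 32851 mouse promoters of this length, 3.32% held that motif. In Lhcgr the match was AGGTCA, 122 bases before the start, a motif in 14.0% of promoters. The GC box was present in all 4 windows, those of Ptch1, Lhcgr and Hhip being before internal starts, and in 32.7% of the whole set. The letters GACCACCCA were in none of the 4 windows and in 0.225% of the whole set. A match describes these letters and does not show binding.

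Compared per length of exon, Cyp17a1 was the most abundant of the 6, with a median of 131 CPM per kb. Lhcgr stood at 42.2, Ptch1 at 12.7 and Insl3 at 11.5 CPM per kb. The transcripts of Gli1 and Hhip were scarcer, at 4.13 and 2.98 CPM per kb. Cyp17a1 lies at chr19:46667165-46673000 (Entrez 13074), Lhcgr at chr17:88716384-88792059 (Entrez 16867) and Ptch1 at chr13:63508328-63573460 (Entrez 19206), all on the minus strand. Gli1 lies at chr10:127329882-127341579 (Entrez 14632) and Hhip at chr8:79965850-80058060 (Entrez 15245), also on the minus strand. The libraries are stranded, but whether the counting used strand is not given in the sources used here, so reads of Gm47200, an antisense gene that overlaps Gli1, may be included. Gm27820 lies within Hhip and A930032L01Rik within Ptch1, so these values are uncertain in the same way.

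The theca genes varied far more between libraries of a group than the hedgehog genes did. The pooled SD within groups was 1.32 log2 for Cyp17a1, 0.94 for Lhcgr and 0.83 for Insl3. These exceeded the SD of 98.6%, 96.7% and 95.6% of all genes kept. For Ptch1 the SD was 0.25, close to the median of 0.246 over all genes kept. For Gli1 it was 0.36 and for Hhip 0.50. Between the highest and the lowest of the 30 libraries, Cyp17a1 differed 58.4-fold, Insl3 13.6-fold and Lhcgr 8.3-fold. The same span was 4.5-fold for Hhip, 3.2-fold for Gli1 and 2.5-fold for Ptch1.

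**Figure D1:**
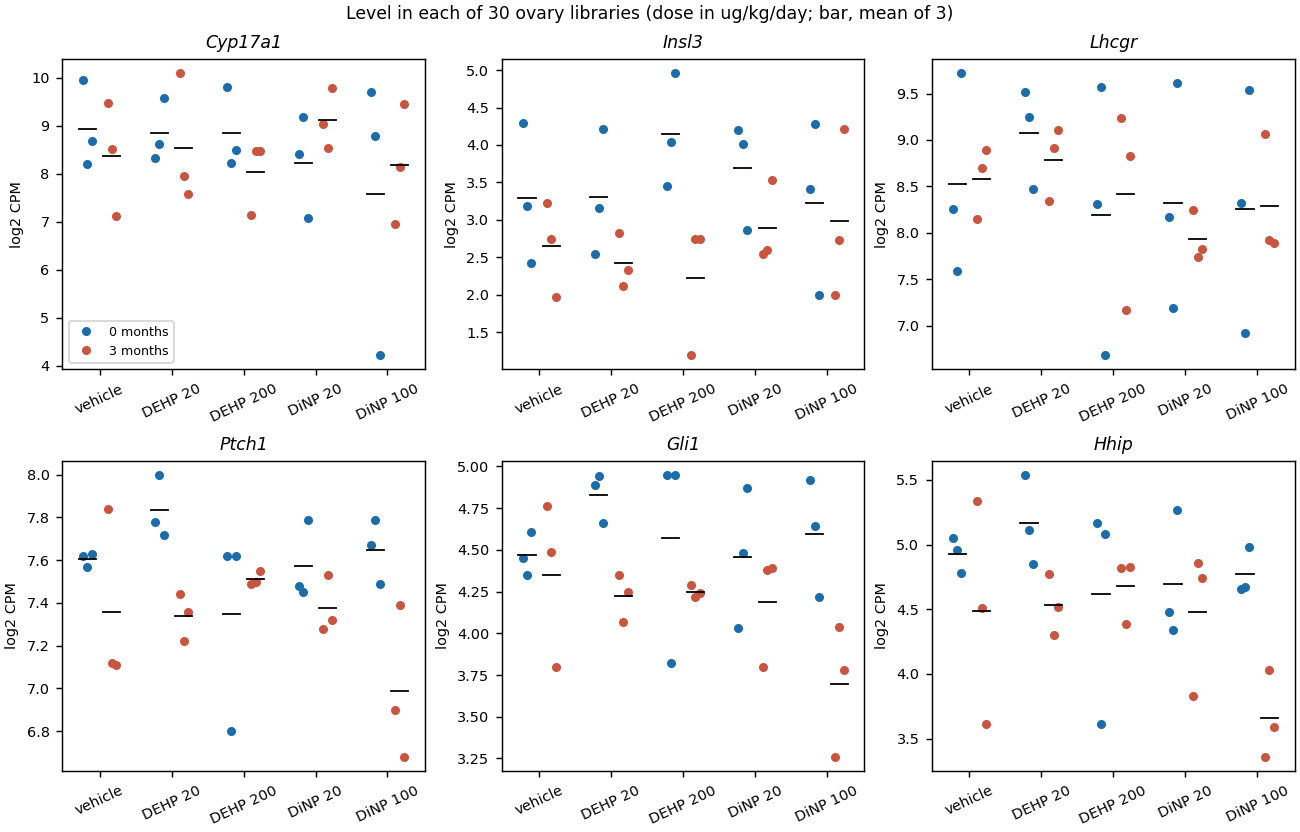
Log2 CPM of the 6 genes (y axis) in each library, by treatment (x axis, dose in ug/kg/day), with 0 months in blue, 3 months in red and a bar at the mean of 3 libraries. Cyp17a1 has 1 library at 4.22 in the DiNP 100 group at 0 months, and the 3 red points of DiNP 100 for Hhip lie between 3.36 and 4.03.

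Lhcgr, the LH receptor, showed no difference past the test between treated and vehicle ovaries. With vehicle at 0 months the libraries stood at 8.26, 7.59 and 9.72 log2 CPM. With DEHP 20 they stood at 9.52, 9.25 and 8.47, and with DEHP 200 at 8.31, 9.57 and 6.68. With DiNP 20 they were 8.17, 7.19 and 9.61, and with DiNP 100 they were 8.32, 6.92 and 9.54. Every treated group at 0 months overlapped the vehicle group. At 3 months the vehicle libraries stood at 8.15, 8.70 and 8.89 and the DEHP 20 libraries at 8.34, 8.91 and 9.11. DEHP 200 gave 9.24, 7.17 and 8.83, DiNP 20 gave 8.25, 7.74 and 7.82, and DiNP 100 gave 9.06, 7.92 and 7.89. These groups overlapped the vehicle group too. The difference from vehicle farthest from 0 was -0.64 ± 0.72 log2 (SE) for DiNP 20 at 3 months, with a 95% confidence interval from -2.13 to 0.85 (limma adjusted p = 1).

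Cyp17a1, the androgen-forming enzyme, had its widest spread in the DiNP 100 group at 0 months. Its 3 libraries stood at 9.70, 8.79 and 4.22 log2 CPM, so replicate 3 lay below all other libraries of the series. Vehicle libraries at 0 months stood at 9.95, 8.19 and 8.67. The difference from vehicle was -1.36 ± 1.01 log2 (95% confidence interval -3.46 to 0.73, limma adjusted p = 1). Without that library it was 0.31, so its sign rests on replicate 3. In the same library Insl3 was at 2.00, the lowest of the 0-month libraries, whereas Lhcgr was at 9.54, among the highest.

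The other 0-month groups overlapped the vehicle group in Cyp17a1. DEHP 20 gave 8.32, 8.62 and 9.58, DEHP 200 gave 9.81, 8.22 and 8.49, and DiNP 20 gave 8.41, 9.17 and 7.08. At 3 months vehicle gave 9.47, 8.52 and 7.12, DEHP 20 gave 10.09, 7.96 and 7.57, and DEHP 200 gave 7.14, 8.46 and 8.48. DiNP 20 gave 9.04, 8.54 and 9.78 and DiNP 100 gave 6.95, 8.13 and 9.45, again overlapping the vehicle group. The difference at 3 months ranged from -0.34 ± 1.01 for DEHP 200 to 0.75 ± 1.01 for DiNP 20. Intervals of this width, -1.34 to 2.85 for DiNP 20, leave sizeable changes in either direction undetectable with 3 libraries a group.

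Insl3, the theca peptide hormone, was lower at 3 months than at 0 months. Vehicle libraries went from 4.29, 3.18 and 2.42 log2 CPM at 0 months to 3.23, 2.74 and 1.97 at 3 months. DEHP 20 libraries went from 2.54, 3.16 and 4.21 to 2.82, 2.12 and 2.33, and DEHP 200 libraries from 3.45, 4.04 and 4.96 to 1.19, 2.75 and 2.74. DiNP 20 libraries went from 4.20, 4.02 and 2.87 to 2.54, 2.60 and 3.53, and DiNP 100 libraries from 3.41, 4.28 and 2.00 to 2.00, 2.73 and 4.22. Only with DEHP 200 did all 3 of the later libraries lie below all 3 of the earlier ones. By this rule 6.23% of genes kept were lower in that group.

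Averaged over the 5 treatments, Insl3 fell by 0.90 ± 0.29 log2 between 0 and 3 months (limma adjusted p = 0.03). Its mean was 3.54 ± 0.84 (SD, n = 15) at 0 months and 2.63 ± 0.71 at 3 months. The group mean was lower at 3 months in 5 of 5 treatments, and 13 of 15 libraries at 3 months lay below the 0-month median. Jak3, whose last exon is shared, stood at 0.16 ± 0.09 log2, not past the test (limma adjusted p = 0.205). The Insl3 call rested on single libraries: leaving out any 1 of 9 of the 30 libraries took the adjusted p to between 0.0501 and 0.0582. These 9 libraries were vehicle replicate 1, DEHP 20 replicate 3, DEHP 200 replicate 3 and DiNP 100 replicate 2 at 0 months. At 3 months they were vehicle replicate 3, DEHP 20 replicate 2, DEHP 200 replicate 1, DiNP 20 replicate 1 and DiNP 100 replicate 1. Without each of them Insl3 stood at -0.80 to -0.87.

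Between treated and vehicle ovaries Insl3 showed no difference past the test. The value farthest from 0 was 0.85 ± 0.64 for DEHP 200 at 0 months (95% confidence interval -0.47 to 2.18, limma adjusted p = 0.914). Replicate 3 of that group, at 4.96 log2 CPM, was the highest library of the series in Insl3. At 3 months the same dose stood at -0.42 ± 0.64 (limma adjusted p = 1). The difference of these differences, -1.28 ± 0.91, did not pass either (limma adjusted p = 1).

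Relative to Cyp17a1 in the same library, Insl3 was lower at 3 months before correction only. The log2 ratio of Insl3 to Cyp17a1 averaged -4.94 in the 15 libraries at 0 months and -5.81 at 3 months. The difference of -0.87 had a two-sided permutation p = 0.0124, or 0.112 adjusted over the 9 comparisons of that ratio. The ratio of Lhcgr to Cyp17a1 differed by -0.04 (permutation p = 0.951). Against vehicle of the same time no ratio could go below 0.10, the smallest exact permutation p that 3 against 3 allows.

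Ptch1, the hedgehog receptor and a target of the pathway, was lower at 3 months on average over the treatments. Vehicle libraries went from 7.62, 7.57 and 7.63 log2 CPM to 7.84, 7.12 and 7.11. DEHP 20 libraries went from 7.78, 8.0 and 7.72 to 7.44, 7.22 and 7.36, and DEHP 200 libraries from 7.62, 6.80 and 7.62 to 7.49, 7.50 and 7.55. DiNP 20 libraries went from 7.48, 7.45 and 7.79 to 7.28, 7.53 and 7.32, and DiNP 100 libraries from 7.67, 7.79 and 7.49 to 6.90, 7.39 and 6.68. With DEHP 20 and with DiNP 100 all later libraries lay below the earlier ones, as in 11.3% and 8.02% of genes kept. The group mean was lower at 3 months in 4 of 5 treatments. The difference ran from -0.66 ± 0.20 with DiNP 100 to 0.17 ± 0.20 with DEHP 200, and was -0.25 ± 0.20 with vehicle. Averaged over the 5 treatments Ptch1 fell by 0.29 ± 0.09 log2 (limma adjusted p = 0.0269). The adjusted p was 0.0523 without DEHP 200 replicate 3 at 0 months, 0.0501 without DiNP 20 replicate 3 at 0 months and 0.0534 without vehicle replicate 3 at 3 months, each with a difference of -0.26.

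Gli1, the transcription factor whose own transcript reports the pathway's activity, followed the same course. Vehicle libraries stood at 4.45, 4.35 and 4.61 at 0 months and at 4.76, 4.49 and 3.80 at 3 months. DEHP 20 libraries went from 4.89, 4.94 and 4.66 to 4.35, 4.07 and 4.25, and DEHP 200 libraries from 4.95, 3.82 and 4.95 to 4.29, 4.22 and 4.24. DiNP 20 libraries went from 4.03, 4.48 and 4.87 to 3.80, 4.38 and 4.39, and DiNP 100 libraries from 4.92, 4.64 and 4.22 to 3.26, 4.04 and 3.78. With DEHP 20 and DiNP 100 the later libraries all lay below the earlier ones, as in 11.3% and 8.02% of genes kept. The group mean was lower at 3 months in 5 of 5 treatments. The difference ran from -0.90 ± 0.28 with DiNP 100 to -0.12 ± 0.28 with vehicle. Gli1 fell by 0.44 ± 0.13 log2 on average over the 5 treatments (limma adjusted p = 0.0177). It kept an adjusted p of at most 0.0351 whichever library was left out.

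Hhip, the ligand-binding inhibitor, was lower by a similar size and missed the threshold. Vehicle libraries went from 5.05, 4.96 and 4.78 to 5.34, 4.51 and 3.61. DEHP 20 libraries went from 5.54, 5.11 and 4.85 to 4.77, 4.30 and 4.52, and DEHP 200 libraries from 5.17, 3.61 and 5.08 to 4.82, 4.39 and 4.83. DiNP 20 libraries went from 4.48, 4.34 and 5.27 to 3.83, 4.86 and 4.74, and DiNP 100 libraries from 4.66, 4.67 and 4.98 to 3.36, 4.03 and 3.59. Here too the later libraries all lay below the earlier ones with DEHP 20 and DiNP 100, as in 11.3% and 8.02% of genes kept. The group mean was lower at 3 months in 4 of 5 treatments. The difference ran from -1.11 ± 0.39 with DiNP 100 to 0.06 ± 0.39 with DEHP 200, and was -0.45 ± 0.39 with vehicle. Hhip stood at -0.47 ± 0.17 log2 on average (limma adjusted p = 0.0557). It passed without DEHP 200 replicate 2 at 0 months (-0.57, adjusted p = 0.00817), DiNP 20 replicate 2 at 0 months (-0.51, 0.0488), vehicle replicate 1 at 3 months (-0.56, 0.0155) or DiNP 100 replicate 2 at 3 months (-0.51, 0.0397).

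For the average time difference, 3 of the 6 genes were called lower and none higher. Of all 14740 genes kept, 9.63% were called lower and 10.6% higher in that comparison, 20.3% in all. In single treatments, 0 of the 6 genes passed in limma. The share of all genes called there was 0.00678% for vehicle, 0.0204% for DEHP 20, 0.0136% for DEHP 200, 0.0204% for DiNP 20 and 0.0475% for DiNP 100, with 1176, 1596, 1726, 1143 and 2789 genes at an unadjusted p under 0.05. In the DiNP 100 comparison 0.0271% were called lower. For vehicle the lowest adjusted p of the 6 was 0.759, and 0 of 6 had an unadjusted p under 0.05. For the 4 treated groups the lowest was 0.169, and 6 of 24 values had an unadjusted p under 0.05. The DiNP 100 group held 3 of these: Ptch1 at -0.66 ± 0.20, Gli1 at -0.90 ± 0.28 and Hhip at -1.11 ± 0.39 (limma adjusted p = 0.169, 0.176 and 0.192). Without DiNP 100 replicate 2 at 3 months all 3 passed, at -0.86, -1.07 and -1.30 (limma adjusted p = 0.0207, 0.0309 and 0.0476). That fit called 2071 of all 14740 genes, against 7 with the library kept. The share of genes kept whose later libraries all lay below the earlier ones was 11.3% with DEHP 20 and 8.02% with DiNP 100. None of the 24 time-by-treatment interactions of the 6 genes passed (lowest limma adjusted p = 0.997, 0 with an unadjusted p under 0.05), so the treatments were not shown to differ in their change over time.

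**Figure D2:**
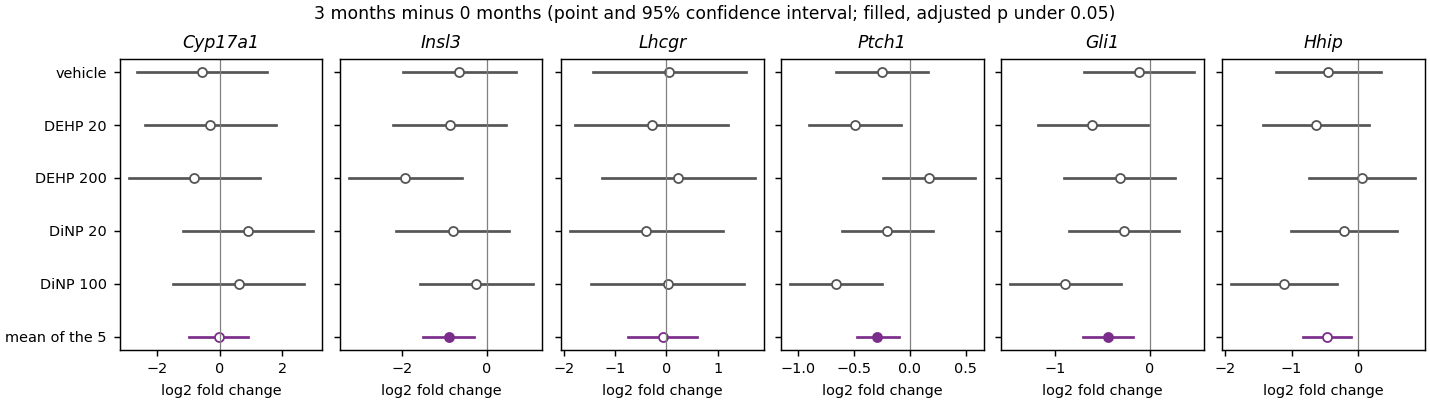
Log2 fold change from 0 to 3 months (x axis) for each of the 6 genes by treatment, with 95% confidence intervals from limma. The purple row is the mean of the 5 treatments, filled where the adjusted p is under 0.05: Insl3 (-0.90), Ptch1 (-0.29) and Gli1 (-0.44).

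The depth of the libraries and the markers of other cell types moved with these genes. The smallest steps between values put the depth at 24.7 to 41.4 M reads per library, on the scale of the deposited CPM and so including the authors' own scaling. Its mean was 31.5 M reads at 0 months and 29.3 M reads at 3 months. Across the 30 libraries depth correlated with Ptch1 at r = 0.61 (rho = 0.69), with Gli1 at r = 0.62 (rho = 0.60) and with Hhip at r = 0.58 (rho = 0.56), each with a permutation p of 0.00134 for r after adjustment over the 6 genes. For these 3 genes r was 0.70 to 0.75 without the 2 libraries of most extreme depth, 0.37 to 0.47 within 0 months and 0.63 to 0.66 within 3 months. Insl3 correlated with depth at 0.39 (adjusted permutation p = 0.0406) and Lhcgr at -0.53 (0.00353), but without those 2 libraries the values were 0.27 and -0.30. Within 0 months and within 3 months Insl3 stood at 0.44 and 0.09, and Lhcgr at -0.64 and -0.51. Over all genes kept, the median absolute correlation with depth was 0.34.

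With depth as a term of the fit, an alternative added after the data were seen, no gene of the 6 passed for the average time difference. Insl3 stood at -0.70 (limma adjusted p = 0.123), Ptch1 at -0.19 (0.119), Gli1 at -0.32 (0.079) and Hhip at -0.31 (0.232). The same term took the number of all genes called from 2986 to 1435. The column sums of the deposited CPM, which ran from 907668 to 1164842, correlated with this depth at -0.73. They correlated with Ptch1 at -0.83, with Gli1 at -0.82 and with Hhip at -0.73. When depth was multiplied by the column sum, which takes the authors' scaling out, its correlation with Ptch1 was 0.35. With that product as the term, Insl3 (-0.84), Ptch1 (-0.27) and Gli1 (-0.42) passed, at limma adjusted p = 0.0368, 0.0341 and 0.0227. When every column was rescaled to the same sum, which moved the median of all genes to -0.08, Insl3 (-0.98), Ptch1 (-0.37), Gli1 (-0.52) and Hhip (-0.55) all passed.

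The corpus luteum is the gland that forms from an ovulated follicle. Of 10 corpus luteum genes kept for testing, Lhcgr among them, 3 were higher at 3 months and 0 lower. Of all genes kept, 10.6% were called higher and 9.63% lower. The summed level of the 10 measured markers other than Lhcgr ran from 4200 to 36100 CPM at 0 months and from 12400 to 46700 CPM at 3 months, a mean difference of 0.82 log2. It correlated across the 30 libraries with Gli1 at r = -0.78, Ptch1 at -0.69, Hhip at -0.63, Insl3 at -0.54 and Lhcgr at 0.43. The sum of 12 granulosa markers ran from 3210 to 7260 CPM at 0 months and from 2370 to 4860 CPM at 3 months, a difference of -0.61, and 11 of the 12 were called lower. It correlated with Gli1 at 0.71, Hhip at 0.65, Insl3 at 0.52 and Ptch1 at 0.50.

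Markers of other cell types differed over time too, beside 9.63% of all genes kept called lower and 10.6% higher. Of 10 oocyte markers 9 were called lower at 3 months, their sum differed by -0.69, and it correlated with Gli1 at 0.81, Ptch1 at 0.68, Hhip at 0.65 and Insl3 at 0.62. Of 8 macrophage markers 8 were called higher, their sum differed by 0.66, and it correlated with Gli1 at -0.69, Hhip at -0.66 and Ptch1 at -0.61. Of 9 smooth muscle markers, genes of the theca externa and of vessels, 4 were called lower and all 9 stood below 0, and their sum differed by -0.27. The sum of 8 endothelial markers differed by 0.14 and correlated with Insl3 at -0.68 and with Lhcgr at 0.59. The luteal markers were thus 1 of several lists that varied with the 6 genes. The 5 measured theca markers other than the 6 genes differed by 0.17 in sum, but not all in the same direction. Enpep went from a mean of 6.48 log2 CPM at 0 months to 5.95 at 3 months. The means of Aldh1a1 (9.87 to 10.04), Mgarp (8.63 to 8.94), Nr5a1 (8.11 to 8.31) and Nr2f2 (7.02 to 7.15) were higher. The sum of these theca markers correlated with Cyp17a1 at 0.27, Insl3 at -0.19 and Lhcgr at 0.10. With Ptch1 it stood at -0.24, with Gli1 at -0.14 and with Hhip at -0.25. None of the markers measured in these lists stood at the lowest value in every library. These correlations are given as descriptions, since all points share the same libraries and scaling, and the part of these cell types in the time difference was not tested.

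**Figure D3:**
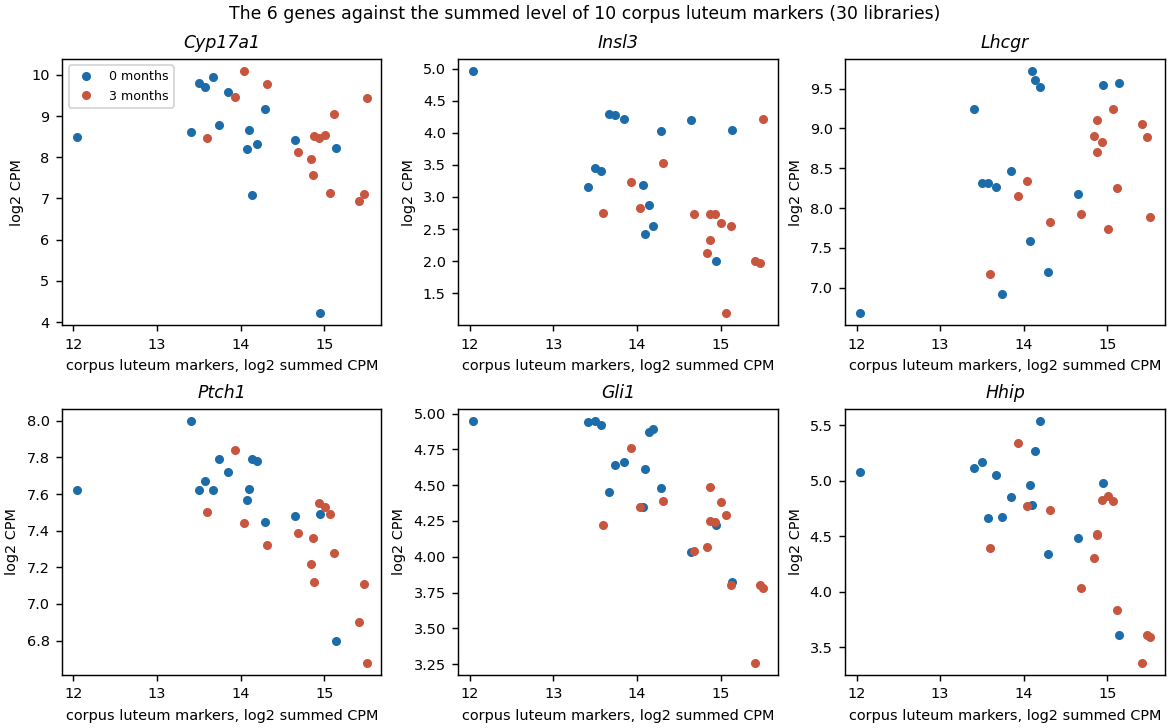
Log2 CPM of the 6 genes (y axes) against the log2 summed CPM of 10 corpus luteum markers (x axes) in 30 libraries, blue at 0 months and red at 3 months. Ptch1, Gli1 and Hhip are lower where the marker sum is higher (r = -0.69, -0.78 and -0.63), while Cyp17a1 spreads widely (r = -0.40).

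Other hedgehog genes also passed the test over time, in which 9.63% of all genes kept were called lower and 10.6% higher. The counts below include Ptch1, Gli1 and Hhip in each list that holds them, so they are not separate from the results above. Of 8 genes for ligands and their release that were kept, 3 were lower at 3 months and 0 higher, with a median of -0.19 log2 against 0.00 for all genes. They were the ligands Ihh (-0.70 ± 0.19, limma adjusted p = 0.0155) and Dhh (-0.52 ± 0.12, 0.00694), and Scube1 (-0.57 ± 0.16, 0.0174), which encodes a secreted protein of the SCUBE family. Ihh is also among the granulosa markers summed above. Of 9 receptors and co-receptors, 2 were lower: Ptch1 and Lrp2 (-1.0 ± 0.29, 0.0201), an endocytic receptor. Smo, the signal transducer, stood at -0.09 ± 0.04 (0.0726), not past the test. Shh was not analysed here.

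Among 16 genes of intracellular hedgehog signalling, 5 were lower and 1 was higher, beside 9.63% and 10.6% of all genes kept. Besides Gli1 the lower ones were Gli2, a main activator of the pathway (-0.39 ± 0.12, limma adjusted p = 0.0217), the ciliary regulator Kif7 (-0.29 ± 0.07, 0.00476), Stk36 (-0.20 ± 0.07, 0.0398) and Gpr161, a ciliary receptor that restrains the pathway (-0.51 ± 0.10, 0.00251). Spop, an adaptor that directs GLI proteins to degradation, was higher (0.25 ± 0.06, 0.00428). Gli3 stood at -0.09 ± 0.08 (0.458). Of 10 direct target genes, Ptch1, Gli1 and Foxl1 (-0.73 ± 0.17, 0.0056) were lower, and Hsd11b1, which regenerates active glucocorticoid, was higher (2.10 ± 0.35, 0.000684). With depth as a term, the counts called lower were 2 of 8 ligand and release genes, 0 of 9 receptors, 2 of 16 intracellular genes and 1 of 10 targets.

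The androgen synthesis genes that passed were higher at 3 months. Of 14 kept, with a median of 0.46 log2, 4 were higher at 3 months and 0 lower, beside 10.6% and 9.63% of all genes kept. These were Hsd3b1, the dehydrogenase that forms progesterone (0.67 ± 0.15, limma adjusted p = 0.0053), Por, the electron donor of CYP17A1 (0.41 ± 0.08, 0.00139), Srd5a1, a steroid reductase (0.42 ± 0.12, 0.0177), and Tspo, a mitochondrial membrane protein (0.74 ± 0.21, 0.0178). Star, the cholesterol carrier, stood at 1.69 ± 0.61 (0.052) and Cyp11a1, the side-chain cleavage enzyme, at 0.72 ± 0.33 (0.127). Cyp17a1 itself stood at -0.04 ± 0.45 (0.965) and Lhcgr at -0.07 ± 0.32 (0.898). Cyp11a1, Hsd3b1 and Scarb1, all in the androgen synthesis list, are also among the corpus luteum markers summed above.

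Of 14 genes of LH and INSL3 signalling, 4 were higher and 2 lower at 3 months, beside 10.6% and 9.63% of all genes kept. The higher ones were Gnas, the stimulatory G protein subunit (0.21 ± 0.06, limma adjusted p = 0.0179), the adenylyl cyclase Adcy9 (0.54 ± 0.15, 0.0168), and the phosphodiesterases Pde4d (0.96 ± 0.28, 0.0218) and Pde8a (0.33 ± 0.08, 0.00717). The lower ones were Insl3 and Prkar2b, a regulatory subunit of protein kinase A (-0.48 ± 0.10, 0.00379). With depth as a term, 1 of the 14 was called higher and 1 lower, and of the androgen synthesis genes 3 of 14 were called higher. Among 11 transcription factors of theca cells, 2 were lower, Gata6 (-0.33 ± 0.09, 0.0127) and Nr5a2 (-0.44 ± 0.13, 0.0217), and 0 were higher. The median over those 11 was -0.03, and it was 0.01 with depth as a term. Nr5a2 is also among the granulosa markers summed above.

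Against vehicle of the same time, 0 of the 6 genes passed in any of the 8 comparisons, and limma called 0% of all genes kept in each. At an unadjusted p under 0.05 limma found 350, 740, 307 and 258 genes at 0 months for DEHP 20, DEHP 200, DiNP 20 and DiNP 100. At 3 months it found 248, 212, 224 and 1368. Of the 24 values of the 6 genes at 0 months, 0 had an unadjusted p under 0.05, and of the 24 at 3 months, 2 did. These were Gli1 and Hhip with DiNP 100. The test for any difference among the treatments gave unadjusted p from 0.102 to 0.84 over the 6 genes and both times (limma F test, lowest adjusted p = 0.957). It called 0 of all genes at either time, with 325 and 588 at an unadjusted p under 0.05. For the mean of the 4 treated groups limma called 0 of all genes too (376 and 169 at an unadjusted p under 0.05), and the lowest adjusted p of the 6 genes was 1.

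**Figure D4:**
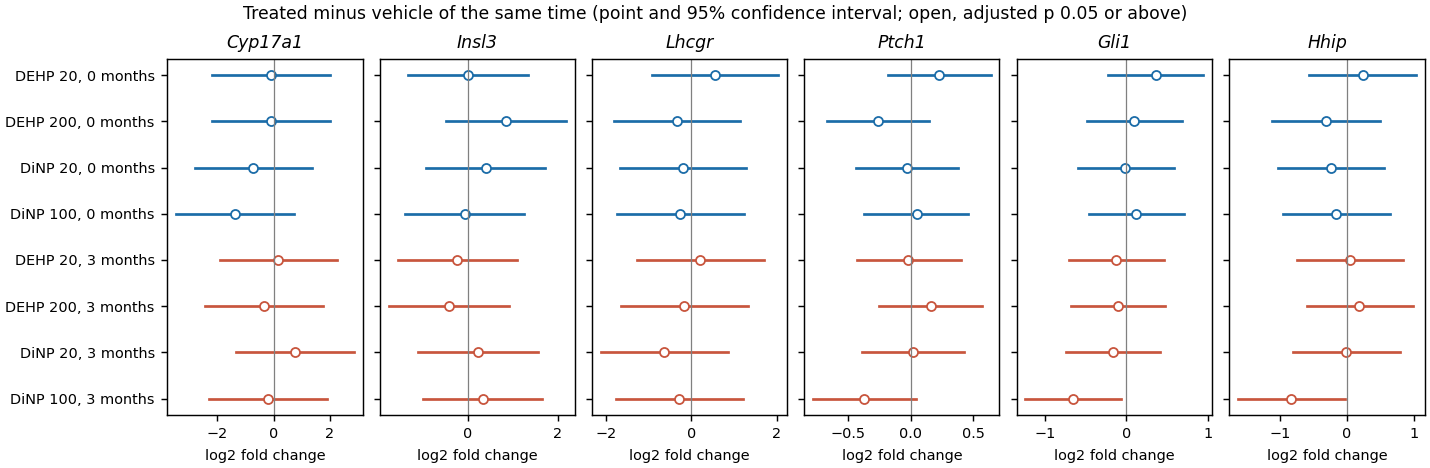
Log2 fold change of each treated group from vehicle of the same time (x axis) for the 6 genes, with 95% confidence intervals from limma, blue at 0 months and red at 3 months. All points are open because none passed, and the intervals of Gli1 and Hhip for DiNP 100 at 3 months are the ones that lie wholly below 0.

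The hedgehog genes were lowest in the ovaries taken 3 months after DiNP 100. Gli1 stood at 3.26, 4.04 and 3.78 log2 CPM there and at 4.76, 4.49 and 3.80 with vehicle, a difference of -0.66 ± 0.28 (95% confidence interval -1.24 to -0.07, limma adjusted p = 0.518). Hhip differed by -0.83 ± 0.39 (-1.62 to -0.03, 0.518) and Ptch1 by -0.37 ± 0.20 (-0.78 to 0.04, 0.518). For each of the 3 genes the vehicle and DiNP 100 libraries overlapped, with vehicle replicate 3 below DiNP 100 replicate 2 in each. Gli2 stood at -0.53 ± 0.26 (limma adjusted p = 0.518), Ihh at -0.14 ± 0.43 (0.921) and Dhh at 0.02 ± 0.28 (0.983).

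Leaving out single libraries moved these values. Without vehicle replicate 1 the differences were -0.45 for Gli1, -0.40 for Hhip and -0.13 for Ptch1, and without vehicle replicate 3 they were -0.93, -1.26 and -0.49. Without DiNP 100 replicate 2 the adjusted p was 0.0976, 0.135 and 0.0888. That fit called 633 of all genes, none of them among the 6. The approximate depth, which includes the authors' scaling, was 25.4, 27.4 and 26.0 M reads with DiNP 100. With vehicle it was 34.5, 29.2 and 26.1 M reads. The corpus luteum marker sums were 43400, 26300 and 46700 CPM with DiNP 100 against 15600, 30100 and 45400 CPM with vehicle. With depth as a term the differences were -0.45 for Gli1, -0.55 for Hhip and -0.21 for Ptch1. The part of the luteal markers in them was not tested.

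The 10 groups were also ordered by their means. For Ptch1, Gli1 and Hhip the DEHP 20 group at 0 months was highest (7.83, 4.83 and 5.17) and the DiNP 100 group at 3 months lowest (6.99, 3.69 and 3.66). The step down to that lowest group was the single step of 9 that exceeded the SD within groups, at 0.35 for Ptch1, 0.50 for Gli1 and 0.82 for Hhip. For Cyp17a1, Insl3 and Lhcgr no step between neighbouring groups exceeded it. Cyp17a1 ranged from 9.12 with DiNP 20 at 3 months to 7.57 with DiNP 100 at 0 months. Insl3 ranged from 4.15 to 2.23, both with DEHP 200, at 0 and at 3 months. Lhcgr ranged from 9.08 with DEHP 20 at 0 months to 7.94 with DiNP 20 at 3 months.

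At 0 months the 3 DEHP 20 libraries lay above the 3 vehicle libraries in Ptch1 and Gli1. By the same rule 4.6% of genes kept lay above vehicle in that group. The differences were 0.23 ± 0.20 for Ptch1 and 0.36 ± 0.28 for Gli1 (limma adjusted p = 1 for both). In DEHP 200, replicate 2 was low in Ptch1 (6.80), Gli1 (3.82) and Hhip (3.61). That library had the lowest approximate depth, 24.7 M reads with the authors' scaling included. Its corpus luteum sum was 36100 CPM against 11600 and 4200 CPM in the other replicates of its group. Replicate 3, at 4200 CPM the lowest of the series, had the highest approximate depth, 41.4 M reads. The same library had the highest Insl3 (4.96) and the lowest Lhcgr (6.68) of the series. DEHP 200 minus DEHP 20 at 0 months was -0.49 ± 0.20 for Ptch1 (limma adjusted p = 0.945).

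DEHP and DiNP were given at a shared dose of 20 ug/kg/day only, and none of the 6 genes passed the test there between the compounds at either time. This is 1 pair of compounds at 2 times, with p-values adjusted over all genes kept. Limma called 0 of all genes at each time (302 and 427 at an unadjusted p under 0.05). For Gli1, DEHP minus DiNP was 0.37 at 0 months (95% confidence interval -0.22 to 0.95) and 0.03 at 3 months (-0.55 to 0.62). For Ptch1 it was 0.26 (-0.15 to 0.67) and -0.03 (-0.44 to 0.38), and for Hhip 0.47 (-0.33 to 1.27) and 0.05 (-0.75 to 0.85). The intervals for the theca genes were wider. For Cyp17a1 they ran from -1.48 to 2.71 and from -2.67 to 1.51, for Insl3 from -1.72 to 0.94 and from -1.79 to 0.86, and for Lhcgr from -0.74 to 2.24 and from -0.64 to 2.34. Each interval holds 0 with differences on both sides of it, so equal action was not shown. The higher doses, 200 ug/kg/day of DEHP and 100 ug/kg/day of DiNP, differ and were not compared. At 3 months their differences from vehicle in Hhip were 0.19 ± 0.39 and -0.83 ± 0.39.

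Within a compound, no difference between the higher and the lower dose passed in any of the 6 genes. At 3 months DiNP 100 minus DiNP 20 was -0.82 ± 0.39 for Hhip, -0.50 ± 0.28 for Gli1 and -0.38 ± 0.20 for Ptch1 (limma adjusted p = 0.405, 0.445 and 0.425). Limma called 0 of all genes in that comparison and found 1794 at an unadjusted p under 0.05.

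The 3 hedgehog genes varied together across libraries, whereas the 3 theca genes did not all vary in the same direction. Over 30 libraries r was 0.82 between Ptch1 and Gli1 (rho = 0.81), 0.86 between Ptch1 and Hhip (rho = 0.82) and 0.87 between Gli1 and Hhip (rho = 0.78). Each had a permutation p of 1e-05, the smallest that 100000 resamples can give, and 5e-05 after adjustment over 15 pairs. The same pairs stood at 0.82 to 0.83 without the 2 farthest libraries. Within 0 months they stood at 0.72 to 0.81, within 3 months at 0.75 to 0.93, and as deviations from group means at 0.76 to 0.82. Correlations of this size were not limited to the pathway: Dcp1a reached 0.91 with Ptch1, Gdap1 0.89 with Gli1 and Dtl 0.86 with Hhip. The column sum of the deposited CPM correlated with Ptch1 at -0.83, Gli1 at -0.82 and Hhip at -0.73. The part of this shared scaling in the pair correlations was not tested.

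Cyp17a1 and Insl3 correlated at r = 0.57 (rho = 0.62, permutation p = 0.00062 for r, adjusted 0.00232). The value was 0.58 within 0 months, 0.80 within 3 months and 0.63 without the 2 farthest libraries. Lhcgr ran against both. With Insl3 it correlated at -0.57 (rho = -0.54, adjusted permutation p = 0.00318), at -0.73 and -0.65 within the 2 times and at -0.47 without the 2 farthest libraries. With Cyp17a1 it correlated at -0.46 (rho = -0.43, adjusted permutation p = 0.0245), at -0.40 and -0.61 within the 2 times and at -0.42 without the 2 farthest. Among pairs of a theca and a hedgehog gene none passed by r after adjustment. Cyp17a1 with Gli1 stood at r = 0.32 (adjusted permutation p = 0.186), though by rank it passed (rho = 0.43, adjusted permutation p = 0.0421).

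**Figure D5:**
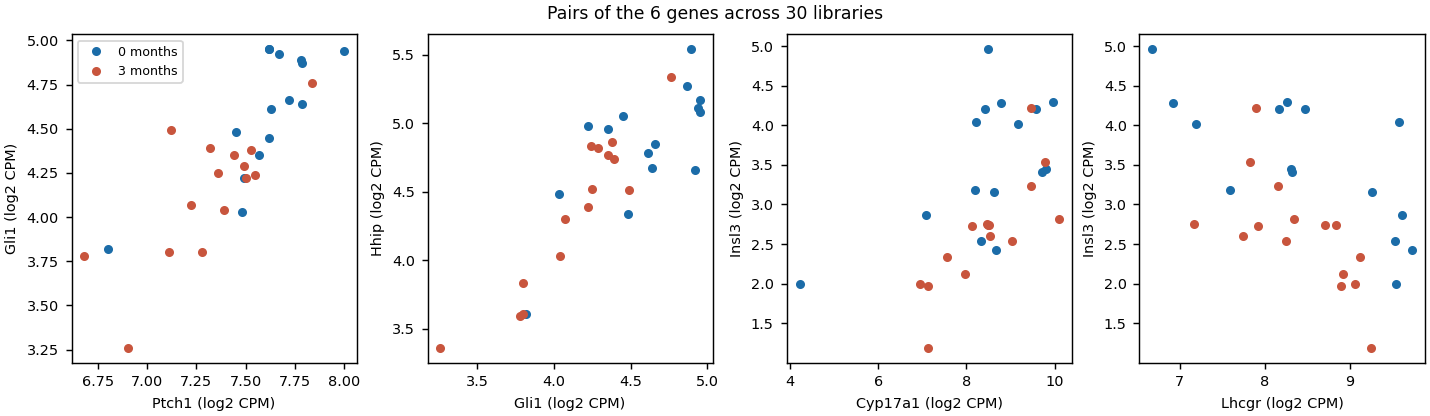
Log2 CPM of 4 pairs of genes against each other in 30 libraries, blue at 0 months and red at 3 months. Ptch1 with Gli1 (r = 0.82) and Gli1 with Hhip (r = 0.87) lie along a line, Cyp17a1 with Insl3 (r = 0.57) is looser, and Insl3 is lower where Lhcgr is higher (r = -0.57).

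Among 14726 genes compared, those most correlated with Cyp17a1 over the 30 libraries were Plin1, a lipid droplet protein (r = 0.86), Aoc3 (0.86) and Lrrc8e (0.82). For Insl3 they were Map3k6 (0.80), the mitochondrial isocitrate dehydrogenase Idh2 (0.79) and Samd14 (0.78). For Lhcgr they were Spns2, a sphingosine-1-phosphate transporter, the fatty acid elongase Elovl5 and Rgs7, each at 0.92. For Ptch1 they were Dcp1a, Csrnp3 and Brca2, each at 0.91, and for Gli1 they were Gdap1 (0.89), Wdr76 (0.88) and Med17 (0.88). For Hhip they were Dtl, Brip1 and Hells, each at 0.86, which are genes of DNA replication and repair. These values describe likeness across the same libraries, and no test was made of them. As deviations from the group means the same genes stood at 0.73 to 0.96 with their partner.

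The difference over time in Gli1 relative to Ptch1 was not past the test. The log2 ratio of Gli1 to Ptch1 averaged -3.02 at 0 months and -3.18 at 3 months, a difference of -0.16 (permutation p = 0.0748, adjusted over 9 comparisons 0.45). It was -0.20 with p = 0.0185 without vehicle replicate 2 at 3 months, -0.19 with p = 0.0278 without DiNP 20 replicate 1 at 0 months and -0.18 with p = 0.0493 without DiNP 100 replicate 3 at 3 months (permutation tests, unadjusted). Hhip relative to Ptch1 averaged -2.77 and -2.95, a difference of -0.18 (permutation p = 0.138).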

How the data were processed

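Messenger RNA of whole ovaries was measured in 30 libraries, prepared with RNeasy and TruSeq stranded kits and read from 1 end on a HiSeq 4000, per the labels' protocols. The authors deposited log2 CPM per gene, and the submitters' processing notes name FastQC 0.11.8, Salmon 0.11.3, edgeR, R 3.5.2 and GRCm38.p6. Annotation, scaling factors and filters are not given in the sources used here. No counts were used: the lowest value was -3.343 log2 CPM, and depth was approximated from the smallest steps above it. Gene positions come from the RefSeq annotation, with 17770 of the identifiers (98.6%) matched. Strands, exons and exon lengths come from the GENCODE annotation of GRCm38.p6.

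Genes with mean log2 CPM above 0 (14740) were fitted in limma 3.58.1 (R 4.3.3) with 1 mean per group over all 30 libraries, 20 residual degrees of freedom and a mean-dependent prior. Tests were two-sided, with Benjamini-Hochberg adjustment over all genes kept and a threshold of 0.05. In the text, ± is the SE for a difference and the SD for a level. No pseudocount was added to the deposited values, which stand for counts per M reads (CPM) on the log2 scale. Ratios and correlations used permutation tests (scipy 1.17.1, 100000 resamples, or exact for 3 against 3). The fit was tested on simulated data. The 6 genes and the gene lists were chosen with earlier results of these data known. Named beyond the 6 are pathway genes past the threshold or always listed, Jak3, and the 3 genes most correlated with each of the 6.
By the median, same-numbered libraries of 1 time were no more alike than differently numbered ones, so replicate numbers were not treated as pairs. Same-numbered libraries deviated together at r = -0.357 to 0.342 (median -0.0288) at 0 months and -0.454 to 0.388 (-0.0666) at 3 months. Differently numbered libraries did so at -0.367 to 0.442 (0.0403) and -0.509 to 0.51 (0.0111). Alternatives were median centring, quantile normalization, no or a stricter filter (above 2), a pseudocount of 1 CPM, other priors, array weights, a replicate block, each time alone, each library left out and, added after the data were seen, depth terms and columns rescaled to the same sum.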

Additional observations from a re-analysis of the deposited data

How the results depend on the processing

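Over 3300 combinations of a difference in 1 of the 6 genes and an alternative, 3270 kept their side of the threshold, 15 newly passed, 15 no longer passed, and 271 changed sign, 0 of these while past the threshold. With array weights, a fit that stopped short of convergence, 1 of the 6 genes passed for DEHP 200 against vehicle at 3 months (Ptch1, 0.39), 1 for the mean of the treated groups at 3 months (Gli1, -0.36), 1 for any treatment at 3 months, 1 for vehicle over time (Ptch1, -0.47) and 3 for DEHP 20 over time (Insl3, Ptch1 and Gli1), where 0 passed in the main analysis. For the average time difference 3 passed in the main analysis, 0 with depth as a covariate, and 1 to 4 with each library left out. For DiNP 100 over time 0 to 3 passed with each library left out. The replicate block left 3 genes called for the average time difference (Insl3 -0.90, Ptch1 -0.29, Gli1 -0.44) and changed no other call.

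All genes called for the average time difference numbered 2986, against 4490 with array weights, 1435 with depth as a covariate and 2147 to 4389 with each library left out. Array weights also took the all-gene counts at 3 months from 0 to 1781 (DEHP 20 against vehicle), 1481 (DEHP 200), 788 (DiNP 20), 2011 (mean of treated) and 2105 (any treatment), and over time to 3567 (vehicle, main analysis 1), 2639 (DEHP 20, main analysis 3) and 280 (DiNP 20, main analysis 3). Without DiNP 100 replicate 2 at 3 months they were 633 against vehicle and 1336 against DiNP 20, main analysis 0, and 2071 over time, main analysis 7. The cause was not tested. No depth per gene could be tested, since no counts were used.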
